A study of Mus musculus with 2 samples.

Results

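The genes described here are 4 secreted antagonists of bone morphogenetic proteins (BMPs), namely Grem1, Nog, Chrdl1 and Chrdl2, and 5 genes that BMP signals switch on in many cells, namely Id1, Id2, Id3, Smad6 and Smad7. They were taken by symbol, and all 9 were among the 32285 genes of both count tables. The antagonists are described apart from the target genes. The cells came from knee joint cartilage of wild type mice that had either sham surgery or DMM, the destabilisation of the medial meniscus that is used as a model of osteoarthritis. Each group was 1 single-cell library pooled from 3 mice, so the libraries were compared without a test and differences between mice were not measured. Strain, age and the time after surgery are not given in the sources used here. In both groups the sort took cells that were Calcein AM positive and negative for DAPI, for CD45 and Ter119 (blood cells) and for CD31 (endothelium), and the labels call them superficial cells.

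The sham library held 106799078 and the DMM library 97346999 unique molecular identifiers (UMIs, counted RNA molecules), and after filtering each kept 9529 cells, with medians of 8064 and 7859 UMIs per cell. Only 24 cell barcodes occurred in both libraries. The label covered a minority of the cells: superficial zone chondrocyte-like cells, named from lubricin (Prg4) and other markers, were 1331 sham and 1070 DMM cells, whereas 1213 sham and 624 DMM cells were erythroid-like in spite of the Ter119 gate. Of 25 clusters, 18 were connective tissue (7622 sham and 8380 DMM cells), and 16 of these had at least 50 cells in each library and are compared below. Superficial zone chondrocyte-like cells formed 2 clusters, one led by Casr, Moxd1 and Chst3 (the Casr cluster) and one led by Msmp, Wif1 and Frzb (the Msmp cluster). Other clusters were chondrocyte-like, hypertrophic chondrocyte-like, synovial lining-like, fibroblast-like, tendon or ligament-like, osteoblast-like, marrow stromal-like or perivascular-like, the last in 2 clusters (led by Myh11 or by Abcc9). Both superficial clusters passed 9 of the 10 superficial zone markers, and their Prg4 was at 41720 CPM in sham and 51460 CPM in DMM, against 414 and 518 CPM in chondrocyte-like cells. The Serpina1e cluster, described next, passed 6 of the 10 and so stayed without the name under a minimum share of markers set after the clusters were seen, although its summed superficial marker level was 126900 CPM in sham and 115700 CPM in DMM, against 102200 and 129000 CPM in the Casr cluster and 82710 and 80970 CPM in the Msmp cluster. A further 5 stayed without a name and are called by leading genes: the Serpina1e cluster (with Hmga2 and Chst5), the Ptprz1 cluster (with Tnn and Postn), the Rgs6 cluster (with Notum and Lef1), the Npy cluster (with Angptl7) and the Angptl1 cluster (with Lrrc15).

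BMPs are secreted proteins of the TGF-beta superfamily that bind paired receptor kinases, which phosphorylate Smad1, Smad5 and Smad9; these join Smad4 and act on genes in the nucleus. Gremlin 1 (Grem1), noggin (Nog) and the chordin-like proteins (Chrdl1, Chrdl2) bind BMPs outside the cell and keep them from their receptors. The Id genes encode helix-loop-helix proteins that lack a DNA-binding region and hold back other transcription factors, and Smad6 and Smad7 are inhibitory Smads that act as negative feedback on the receptors. In joints, noggin is needed for joints to form, and Grem1 marks cells of the growth plate and marrow that give rise to cartilage and bone.

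Promoter sequences are shown for Grem1 and Smad6, an antagonist and a feedback gene that shared their highest level (marrow stromal-like cells) and were each lower in DMM in 4 clusters. The RefSeq table (GRCm38.p6) held the promoters of 4 of the 9 genes, and 2 of these windows lay outside annotated exons. Each window is the 250 bases before the annotated start, on the minus strand, 5′ to 3′. Capitals mark matches to 3 motifs searched on both strands: the GC-rich Smad element GGCGCC, the Smad box CAGAC and the E-box CAGCTG, none of which overlap each other here.
Grem1, chr2:113758649-113758898: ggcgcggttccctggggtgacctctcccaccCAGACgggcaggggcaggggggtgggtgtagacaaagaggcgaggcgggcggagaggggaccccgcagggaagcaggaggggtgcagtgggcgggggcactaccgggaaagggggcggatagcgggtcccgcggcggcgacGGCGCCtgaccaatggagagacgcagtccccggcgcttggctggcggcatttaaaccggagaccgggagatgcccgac
Smad6, chr9:64022060-64022309: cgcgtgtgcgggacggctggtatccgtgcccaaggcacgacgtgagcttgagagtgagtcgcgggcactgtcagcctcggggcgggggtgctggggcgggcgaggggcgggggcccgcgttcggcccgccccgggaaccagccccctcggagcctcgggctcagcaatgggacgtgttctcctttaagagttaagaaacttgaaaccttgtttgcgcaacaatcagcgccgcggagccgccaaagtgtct
The Grem1 window held 1 GGCGCC and 1 CAGAC, and the Smad6 window held none of the 3. GGCGCC occurs in 9.6%, CAGAC in 42.2% and CAGCTG in 13% of the 32851 windows of this length, so a match of these letters is a description of the window and not a binding site.

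The 4 antagonists had different places of highest level. Grem1 and Chrdl1 were highest in marrow stromal-like cells, Nog in hypertrophic chondrocyte-like cells and Chrdl2 in superficial zone chondrocyte-like cells. Levels are CPM, the summed UMIs of a gene scaled to the same total of UMIs in every cluster; brackets hold 95% intervals, and these cover counting error only. They compare clusters within 1 gene, since a UMI count is not a scale for comparing genes.

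**Figure D1:**
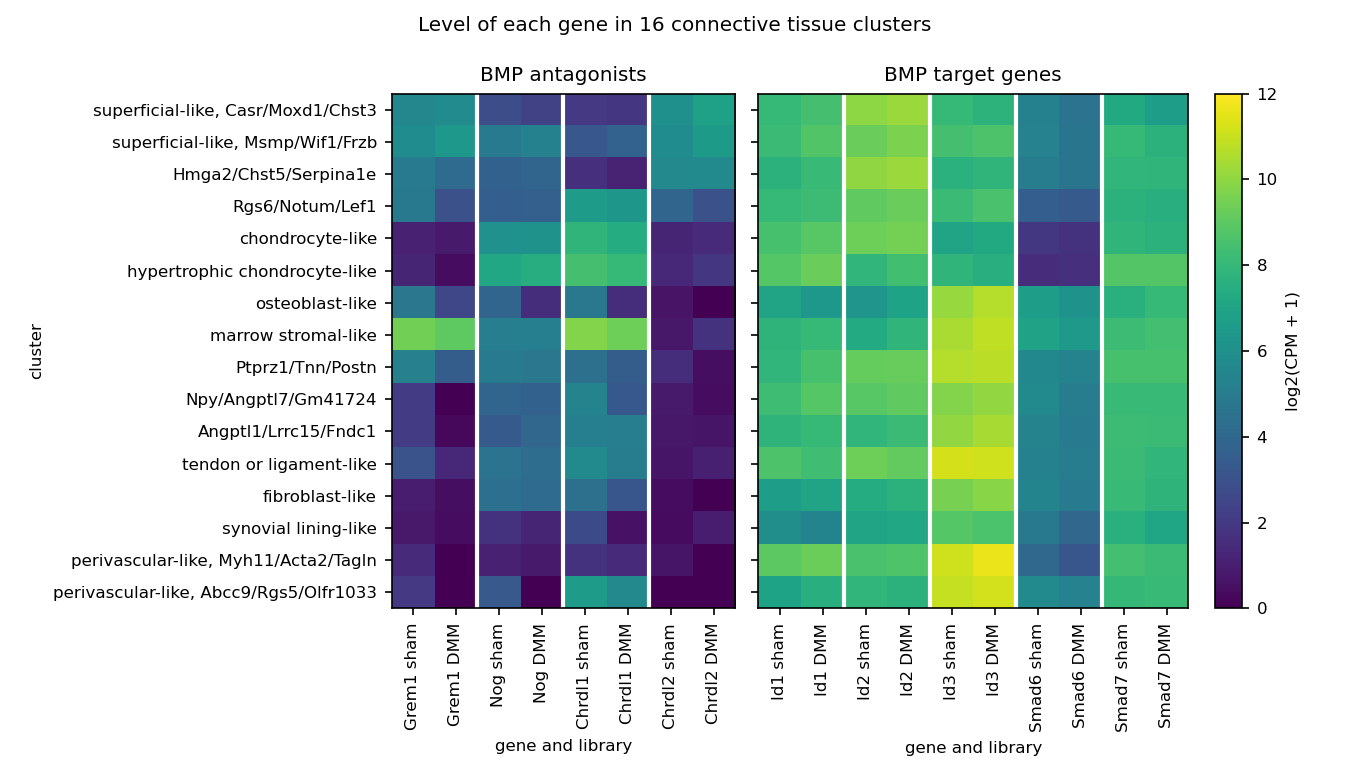
Colour shows log2(CPM + 1) from 0 (dark) to 12 (bright) for the 9 genes in sham and DMM (columns, antagonists left, targets right) and the 16 connective tissue clusters (rows). Chrdl2 stands out in the Casr, Msmp and Serpina1e clusters and is dark in most others, whereas the Id genes run from about mid-scale to bright across the rows.

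Grem1, on chromosome 2 at 113746164 to 113758646 (minus strand, GRCm38), was at 693 CPM [650, 737] in sham and 522 CPM [474, 574] in DMM in marrow stromal-like cells, where 78.3% and 67.2% of cells carried a UMI. That cluster was 198 sham and 125 DMM cells and held 48.1% of all Grem1 UMIs in sham and 32.4% in DMM. The Msmp cluster came next, at 56.8 CPM [49.8, 64.5] in sham and 82.2 CPM [73.5, 91.7] in DMM, followed by the Casr cluster at 46.7 CPM [41.7, 52.2] and 54.7 CPM [48.7, 61.2]. These superficial levels were far below the marrow stromal-like ones; the sham intervals of the Msmp and Casr clusters overlapped and the DMM intervals did not. In sham the Ptprz1 cluster (36.1 CPM [29.6, 43.6]), the Serpina1e cluster (28.4 CPM [24.5, 32.7]), the Rgs6 cluster (27.9 CPM [22.4, 34.2]) and osteoblast-like cells (26.1 CPM [19.3, 34.6]) followed with overlapping intervals. The remaining clusters were lower, down to 0.789 CPM in synovial lining-like cells, and chondrocyte-like cells stood at 1.17 CPM in sham and 0.832 CPM in DMM.

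Marrow stromal-like cells were named from Lepr, Cxcl12, Adipoq and 5 more markers, all 8 of which were detected there in both libraries with a summed level of 34590 CPM in sham and 29610 CPM in DMM. In the other 15 clusters that sum was at most 1419 CPM. The Grem1 level per 100 UMIs of those markers was 2.00 in sham and 1.76 in DMM in the marrow stromal-like cluster, against 18.1 and 27.2 in superficial zone chondrocyte-like cells. Adipoq, a defining gene of the marrow cells, was at 0 in the superficial cells of sham and at 0.106 CPM in DMM. The DMM marrow stromal-like cells also carried 10540 CPM of superficial zone markers, against 1722 CPM in sham; the part of these RNAs in the levels of that cluster was not tested.

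Chrdl2, on chromosome 7 at 100006172 to 100034728 (plus strand), had the narrowest distribution. In sham it was at 64.5 CPM [58.6, 70.9] in the Casr cluster, 55.8 CPM [48.8, 63.5] in the Msmp cluster and 49.3 CPM [44.1, 54.8] in the Serpina1e cluster, each interval overlapping its neighbour's. In DMM the same clusters stood at 115 CPM [106, 124], 93.0 CPM [83.7, 103] and 50.9 CPM [46.3, 55.8], with no overlap. These 3 clusters held 39.0%, 20.8% and 30.2% of Chrdl2 UMIs in sham and 41.6%, 23.8% and 29.6% in DMM. Apart from the Rgs6 cluster at 13.9 CPM in sham and 6.75 CPM in DMM, every other cluster was at most 2.72 CPM, chondrocyte-like cells included (1.34 and 1.75 CPM). Chrdl2 was not detected in the Abcc9 perivascular-like cluster of either library, where a count of 0 (a floor of 3 UMIs) allows up to 9.13 CPM in sham and 9.09 CPM in DMM. Synovial lining-like cells, also rich in Prg4 (56160 CPM in sham and 67220 CPM in DMM), had 0.263 and 0.923 CPM of Chrdl2.

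Nog, on chromosome 11 at 89300638 to 89302332 (minus strand), was highest in the hypertrophic chondrocyte-like and chondrocyte-like clusters instead. It was at 141 CPM [134, 149] in sham and 179 CPM [169, 190] in DMM in hypertrophic chondrocyte-like cells, and at 66.8 CPM [63.1, 70.7] and 68.4 CPM [63.8, 73.3] in chondrocyte-like cells. Marrow stromal-like (34.1 and 34.97 CPM), Ptprz1 (29.5 and 26.2 CPM) and Msmp cells (29.5 and 37.5 CPM) formed a middle group. Their intervals overlapped in sham, whereas in DMM those of the Ptprz1 and Msmp clusters were apart. Within the superficial cells Nog was uneven, since the Casr cluster had only 6.12 CPM [4.39, 8.30] in sham and 4.16 CPM [2.64, 6.25] in DMM, below the Msmp intervals in both libraries.

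Chrdl1, on chromosome X at 143285674 to 143394262 (minus strand), joined both patterns. It was at 887 CPM [839, 937] in sham and 656 CPM [602, 714] in DMM in marrow stromal-like cells, at 354 CPM [342, 366] and 258 CPM [246, 270] in hypertrophic chondrocyte-like cells, and at 230 CPM [223, 238] and 171 CPM [164, 179] in chondrocyte-like cells. Those 3 levels were separate in each library. The Rgs6 (98.4 and 81.0 CPM) and Abcc9 perivascular-like clusters (94.3 and 48.5 CPM) came next, and in the Casr and Serpina1e clusters Chrdl1 was at or below 2.99 CPM. Chrdl1 was thus low in the Casr and Serpina1e clusters, where its relative Chrdl2 was high.

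**Figure D2:**
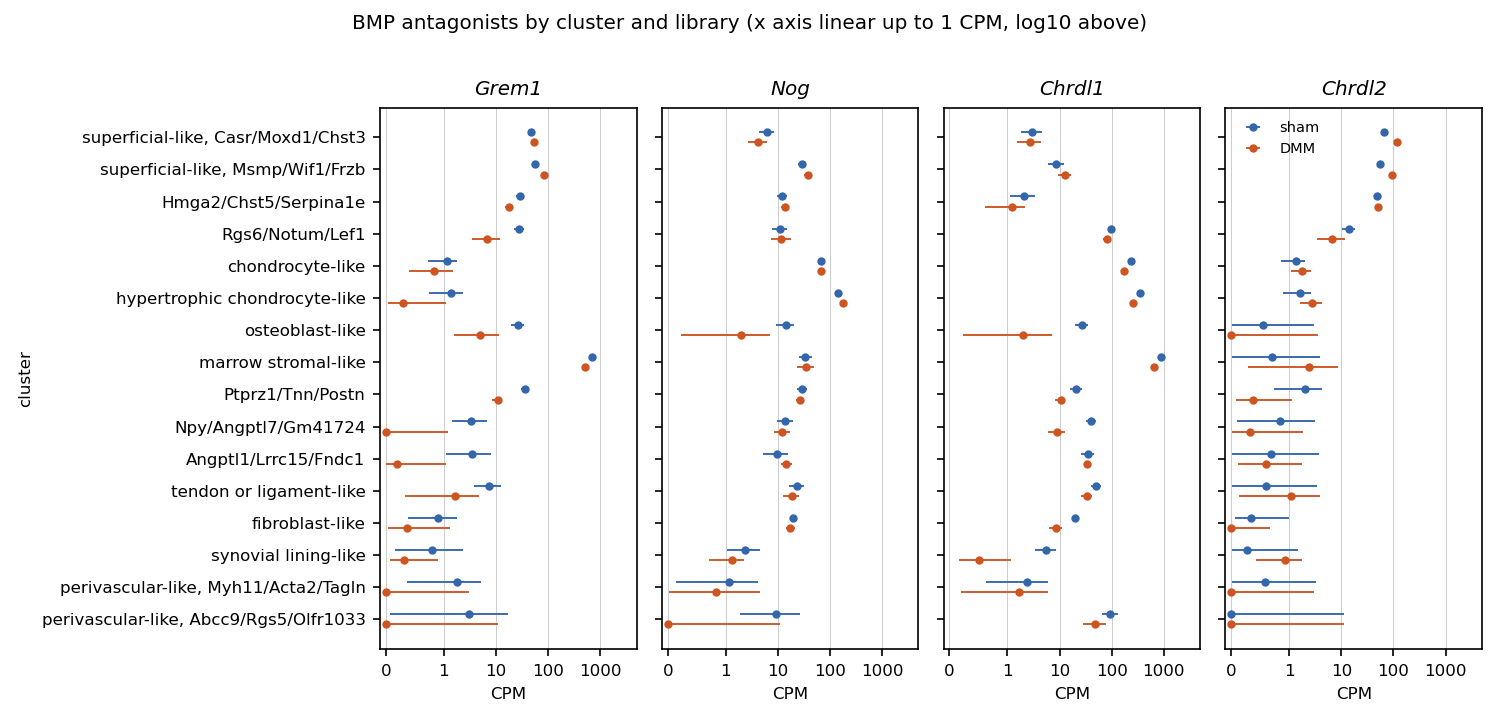
CPM of Grem1, Nog, Chrdl1 and Chrdl2 (x axis, linear up to 1 CPM and log10 above) in the 16 connective tissue clusters (rows), with sham in blue, DMM in orange and bars for 95% counting intervals. The highest points are marrow stromal-like for Grem1 and Chrdl1, hypertrophic chondrocyte-like for Nog and the Casr cluster for Chrdl2.

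Free RNA can place UMIs in cells that do not make them, so shares of positive cells were compared with erythroid-like cells after thinning every cell to 2000 UMIs. In superficial zone chondrocyte-like cells Chrdl2 was seen in 6.68% [5.39, 8.17] of 1317 thinned sham cells and 12.6% [10.6, 14.7] of 1057 thinned DMM cells (14 and 13 shallower cells left out), and in 16.9% and 28.4% of cells before thinning. Erythroid-like cells had 0 of 1188 thinned sham cells, with an interval of [0, 0.310], and 0.492% [0.101, 1.43] of 610 in DMM; their median depths of 7418 and 7770.5 UMIs were close to the 7017 and 7489.5 of the superficial cells. Grem1 was seen in 7.36% [6.01, 8.91] and 7.47% [5.96, 9.23] of the thinned superficial cells, against 0.0842% of erythroid-like cells in sham and none in DMM. Both antagonists were therefore above the background share in each library.

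In superficial cells Chrdl2 was seen more often where Grem1 was seen. In thinned sham cells, Chrdl2 was seen in 24.7% [16.5, 34.5] of the 97 cells with Grem1 and in 5.25% [4.06, 6.65] of those without it. In DMM the shares were 30.4% [20.5, 41.8] of 79 cells and 11.2% [9.24, 13.3] of the rest. The intervals stayed apart within the Casr cluster (33.9% against 5.28% in sham, 39.5% against 11.8% in DMM) and overlapped within the Msmp cluster (10.53% against 5.19%, 19.4% against 10.0%). Nog and Chrdl1 showed no such pairing in chondrocyte-like cells, where Chrdl1 was seen in 38.4% [30.0, 47.2] of sham cells with Nog and 35.2% [32.4, 38.0] of those without. These shares describe cells of 1 library each.

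Between sham and DMM, Chrdl2 was the only antagonist called higher in superficial zone chondrocyte-like cells. It was at 61.2 CPM [56.6, 66.02] in sham and 106 CPM [99.3, 113] in DMM, or 1.73-fold [1.57, 1.91]. A gene was called when its ratio passed 1.5-fold, the interval left out 1 and both libraries together held at least 50 UMIs. By this rule Chrdl2 rose and Smad6 fell among the 9 genes, all of which were testable, where 18.0% of 11137 genes were called in either direction, 2.81% higher and 15.2% lower. The other antagonists passed no call: Grem1 was at 50.6 CPM in sham and 66.1 CPM in DMM (1.31-fold [1.16, 1.47]), Nog at 15.04 and 18.0 CPM (1.20-fold [0.960, 1.49]) and Chrdl1 at 5.17 and 6.78 CPM (1.31-fold [0.902, 1.91]). All 4 log2 ratios were above 0, with a median of 0.39 beside -0.20 over all genes. The 9 erythroid markers, all detected, summed to 3295 CPM in sham and 1182 CPM in DMM in these cells, and their part in the result was not tested. With cells kept from 200 genes, neither Chrdl2 (log2 0.57) nor Smad6 (-0.54) passed 1.5-fold and the antagonist median was -0.03, and adding the Serpina1e cluster to the superficial class gave 0.48 for Chrdl2.

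**Figure D3:**
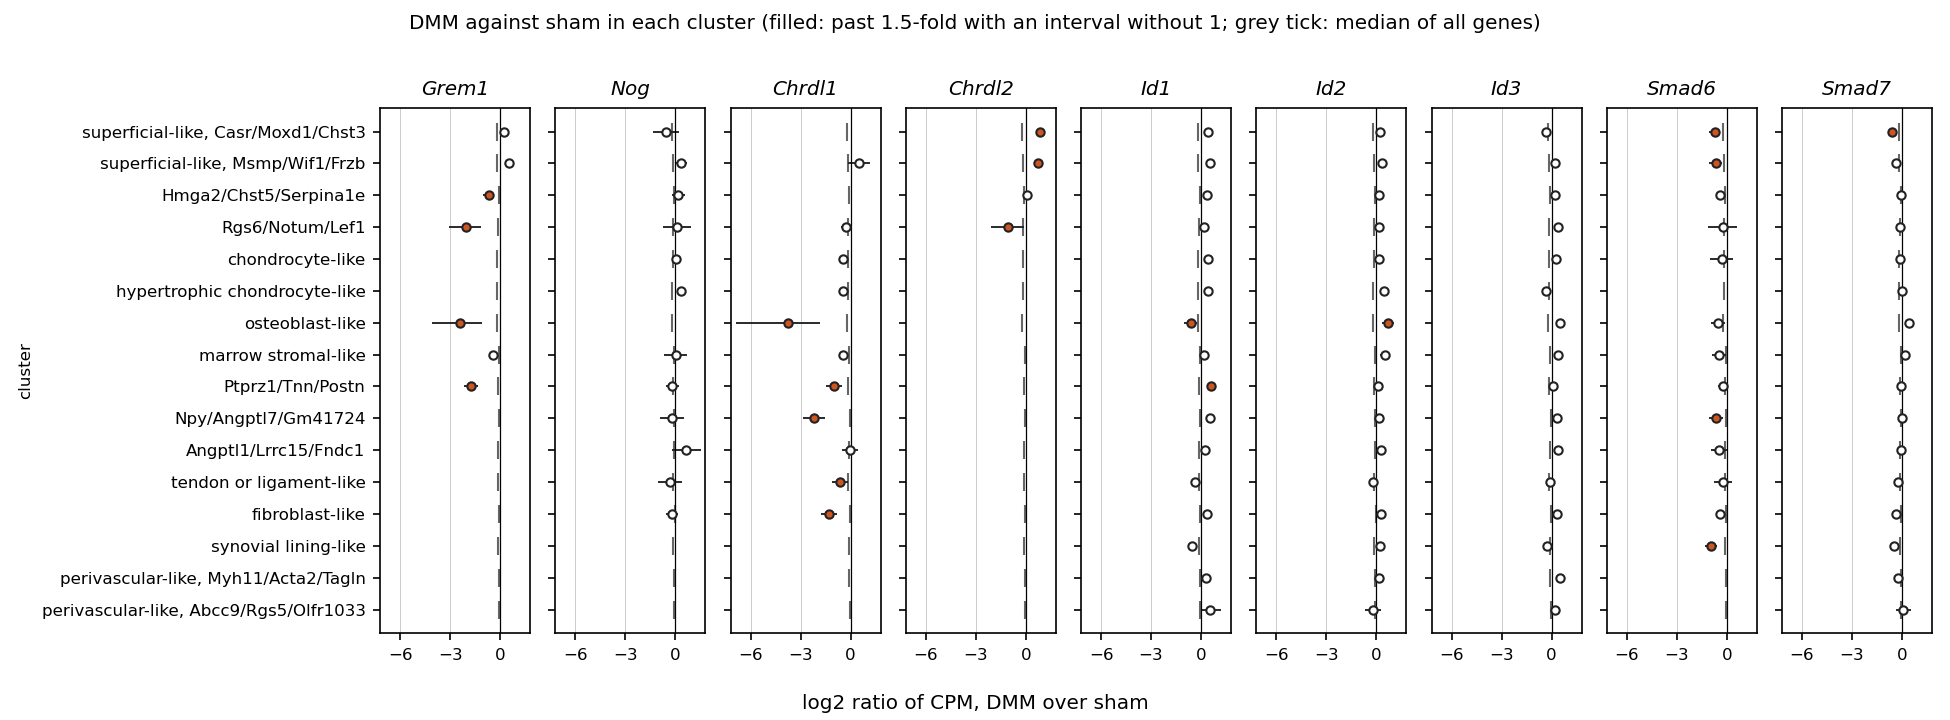
Log2 ratio of CPM, DMM over sham (x axis), for each of the 9 genes (panels) in the clusters (rows) where it had at least 50 UMIs, with 95% counting intervals; filled points were called and grey ticks are the median of all genes. Chrdl2 lies above 0 in the Casr and Msmp clusters, and all called points of Grem1 and Chrdl1 lie below 0.

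Chrdl2 was called higher in both superficial clusters but not in the Serpina1e cluster, where its counting interval took in no change. It was 1.78-fold higher in the Casr cluster (log2 0.83 [0.65, 1.01], where 2.93% of genes were called higher) and 1.67-fold higher in the Msmp cluster (log2 0.74 [0.50, 0.98], 4.09%), against 1.03-fold in the Serpina1e cluster (log2 0.05 [-0.16, 0.26]). Being higher in at least 2 clusters held for 11.2% of genes tested in 4 or more. In the Rgs6 cluster Chrdl2 fell (log2 -1.04 [-2.10, -0.10], where 10.0% of genes were called lower), but on 46 sham and 12 DMM UMIs, 8 of the 12 from 1 cell. Without the cell with most Chrdl2 UMIs in each library the Casr and Msmp values were 0.86 and 0.76, and the Rgs6 cluster fell under the 50-UMI minimum.

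Outside the Casr and Msmp clusters Grem1 was lower in DMM in several clusters, among them the Serpina1e cluster with its high superficial marker level. It was called lower in 4 of the 7 clusters where it was testable and higher in none, and 14.8% of genes tested in at least 7 clusters were lower in at least 4. In the Ptprz1 cluster it was at 36.1 CPM in sham and 10.7 CPM [8.56, 13.3] in DMM (log2 -1.75 [-2.18, -1.33], where 13.9% of genes were called lower). In the Serpina1e cluster it was at 28.4 and 17.6 CPM (log2 -0.69 [-1.003, -0.38], 8.95%). The Rgs6 cluster had 27.9 and 6.75 CPM (log2 -2.04 [-3.05, -1.17]), with 30 of its 92 sham UMIs in a single cell, and osteoblast-like cells 26.1 and 4.88 CPM (log2 -2.42 [-4.11, -1.10], 15.7%), on 48 and 5 UMIs. Leaving out the top cell of each library kept the first 3 calls (-1.94, -0.76 and -2.06) and took osteoblast-like cells under the UMI minimum (-2.82). Marrow stromal-like cells, the main source, had a log2 ratio of -0.41 [-0.57, -0.24] and passed no call.

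The summed markers of marrow stromal cells were lower in DMM in 3 of these 4 clusters and nearly equal in the Serpina1e cluster. The sum was 463 CPM in sham and 355 CPM in DMM in the Ptprz1 cluster, 1419 and 522 CPM in osteoblast-like cells, 490 and 404 CPM in the Rgs6 cluster and 138 and 136 CPM in the Serpina1e cluster. Of the 8 markers, 8 were detected in the Ptprz1 cluster of both libraries, 8 in sham and 7 in DMM osteoblast-like cells, and 7 in the Rgs6 and Serpina1e clusters of both libraries. Grem1 per 100 marker UMIs was 7.80 in sham and 3.02 in DMM, 1.84 and 0.935, 5.69 and 1.67, and 20.5 and 12.9 in those 4 clusters. It was lower in DMM in each, though the osteoblast-like DMM value rested on 5 Grem1 UMIs. Both osteoblast-like values were below those of marrow stromal-like cells (2.00 in sham and 1.76 in DMM). The part of marrow RNA in the Grem1 of these clusters was not tested. The 9 erythroid markers moved too, from 2660 CPM in sham to 1123 CPM in DMM over connective tissue, and their part in the result was not tested.

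Chrdl1 was called lower in 5 of 11 testable clusters and higher in none, where 11.6% of genes tested in at least 11 clusters were lower in at least 5. It was at 20.2 CPM in sham and 8.39 CPM in DMM in fibroblast-like cells (log2 -1.27 [-1.77, -0.79], where 6.71% of genes were called lower), and at 40.3 and 8.94 CPM in the Npy cluster (log2 -2.17 [-2.85, -1.54], 9.58%). The Ptprz1 cluster had 20.9 and 10.48 CPM (log2 -0.99 [-1.48, -0.50]) and tendon or ligament-like cells 50.9 and 33.2 CPM (log2 -0.62 [-1.12, -0.13], 11.2%). Osteoblast-like cells had 49 UMIs in sham and 2 in DMM (log2 -3.77 [-6.86, -1.84]), and fell under the minimum without their top cells. In its main sources the difference was smaller and not called, with log2 ratios of -0.44 in marrow stromal-like, -0.46 in hypertrophic chondrocyte-like and -0.43 in chondrocyte-like cells. Chrdl1 per 100 marrow stromal marker UMIs was 2.56 in sham and 2.22 in DMM in the marrow stromal-like cluster. It went from 1.49 to 0.790 in fibroblast-like, 6.74 to 2.66 in Npy and 8.71 to 4.8 in tendon or ligament-like cells. The fibroblast-like values were below those of the marrow stromal-like cluster, and the part of marrow RNA was not tested.

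Over all connective tissue cells, Grem1 (27.0 CPM in sham, 17.6 CPM in DMM, 1.54-fold lower [1.44, 1.65]) and Chrdl1 (131 and 66.7 CPM, 1.97-fold lower [1.91, 2.04]) fell, where 18.7% of 16567 genes were called, 4.05% higher and 14.7% lower. The cell types differed in number: 198 sham and 125 DMM cells were marrow stromal-like, 484 and 394 hypertrophic chondrocyte-like, and 1220 and 921 chondrocyte-like of the main cluster. With each cluster held at its mean share over both libraries, neither gene passed 1.5-fold (log2 -0.34 for Grem1 and -0.47 for Chrdl1). Grem1 was just under it without its top cells (-0.58). With ratios taken relative to the median over all genes (median-of-ratios scaling), Grem1 passed no call. Chrdl2 and Id3 (log2 0.59) were then past 1.5-fold, higher in DMM. Nog was called in none of the 12 clusters where it was testable. The class of 2 chondrocyte-like clusters, the main one and a smaller one, held it at 63.2 CPM in sham and 64.9 CPM in DMM. None of the 7 testable genes was called in chondrocyte-like cells, where 10.1% of 12494 genes were, 1.36% higher and 8.76% lower.

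The target genes were found in nearly every cluster, and the 3 Id genes did not share 1 order. Id1 was highest in Myh11 perivascular-like cells, Id2 in the Serpina1e and Casr clusters and Id3 in tendon or ligament-like and perivascular-like cells. Across the 16 clusters, log2(CPM + 1) of both libraries together correlated at 0.64 between Id1 and Id2, -0.05 between Id1 and Id3 and -0.40 between Id2 and Id3 (Pearson's r, a description over clusters that share libraries and depth).

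Id1, on chromosome 2 at 152736251 to 152737410 (plus strand), was at 505 CPM [472, 540] in sham and 629 CPM [585, 675] in DMM in Myh11 perivascular-like cells. Hypertrophic chondrocyte-like cells had 449 CPM [435, 462] and 607 CPM [588, 626], below the former in sham and overlapping it in DMM. In sham, tendon or ligament-like (403 CPM) and chondrocyte-like cells (358 CPM) followed. In DMM, chondrocyte-like cells (474 CPM) came next and tendon or ligament-like cells (315 CPM) stood below several other clusters. Synovial lining-like cells were lowest at 60.0 CPM [52.4, 68.3] in sham and 42.0 CPM [38.1, 46.3] in DMM.

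Id2, on chromosome 12 at 25093799 to 25097140 (minus strand), was at 1022 CPM [998, 1047] in sham and 1165 CPM [1142, 1187] in DMM in the Serpina1e cluster. The Casr cluster had 1000 CPM [976, 1024] and 1181 CPM [1153, 1210], overlapping the Serpina1e cluster in both libraries. The Msmp cluster stood lower, at 614 CPM [591, 639] and 793 CPM [765, 821], and osteoblast-like cells were lowest at 76.2 CPM [64.1, 89.9] and 122 CPM [102, 145]. Id2 thus had its highest levels in 2 of the 3 clusters that made Chrdl2, and over the 16 clusters its level correlated with that of Chrdl2 at 0.68.

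Id3, on chromosome 4 at 136143497 to 136145755 (plus strand), had another order. It was at 2380 CPM [2306, 2456] in sham and 2268 CPM [2200, 2338] in DMM in tendon or ligament-like cells, and at 2273 CPM [2203, 2346] and 3175 CPM [3075, 3277] in Myh11 perivascular-like cells, overlapping in sham and apart in DMM. The Casr cluster had 266 CPM [254, 279] and 215 CPM [203, 228], and chondrocyte-like cells were lowest at 129 CPM [124, 134] and 154 CPM [147, 161]. Its correlation with Chrdl2 over clusters was -0.62.

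Within superficial cells Id3 was seen more often where Id1 was seen. In thinned sham cells, Id3 was seen in 48.2% [43.4, 53.0] of cells with Id1 and 24.1% [21.3, 27.1] of those without, and in DMM in 44.2% [39.3, 49.0] and 26.3% [23.0, 29.9]. For Id2 the sham shares of Id3 were 33.0% [29.9, 36.3] with Id2 and 30.1% [25.8, 34.6] without, with overlapping intervals. In DMM they were 35.6% [32.2, 39.0] and 27.3% [22.1, 33.0], which also overlapped.

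The inhibitory Smads had different places of highest level. Smad6, on chromosome 9 at 63953076 to 64022059 (minus strand; promoter above), was at 121 CPM [104, 140] in sham and 88.04 CPM [69.0, 111] in DMM in marrow stromal-like cells and at 100 CPM [86.2, 116] and 69.3 CPM [54.1, 87.4] in osteoblast-like cells, with overlapping intervals. It was low in the other chondrocyte clusters, at 2.85 and 2.33 CPM in chondrocyte-like and 1.92 and 2.12 CPM in hypertrophic chondrocyte-like cells, beside 1.03 and 0.488 CPM in erythroid-like cells, whereas superficial zone chondrocyte-like cells had 37.8 and 23.2 CPM. Smad7, on chromosome 18 at 75367529 to 75395935 (plus strand), was highest in those same hypertrophic cells, at 443 CPM [430, 457] and 448 CPM [432, 465], and lowest in the Casr cluster, at 157 CPM [148, 167] and 102 CPM [93.7, 111]. Across the 16 clusters the 2 genes correlated at -0.12, whereas Smad6 and Id3 correlated at 0.62.

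**Figure D4:**
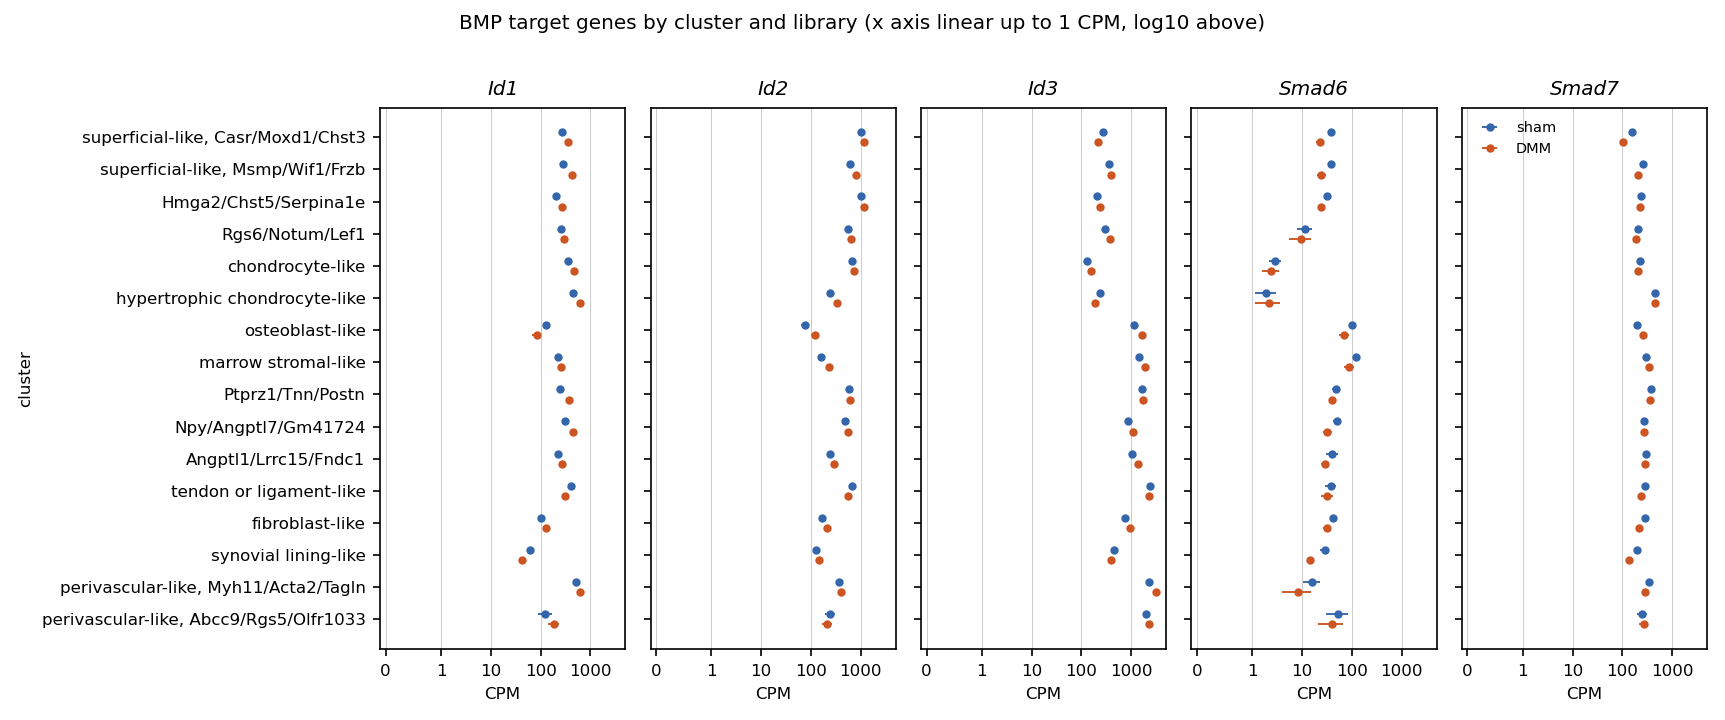
CPM of Id1, Id2, Id3, Smad6 and Smad7 (x axis, linear up to 1 CPM and log10 above) in the 16 connective tissue clusters (rows), with sham in blue, DMM in orange and bars for 95% counting intervals. Id2 and Id3 peak in different clusters, and Smad6 is near 2 CPM in the hypertrophic cells where Smad7 is highest.

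The genes most like each member were named by the correlation of log2(CPM + 1) over 24 clusters, blood cells included, among genes with at least 50 CPM in some cluster. These correlations were not computed over the 16 connective tissue clusters alone, so the part of the contrast with blood cells in them was not tested. The nearest to Chrdl2 were Pdcd1 (0.94), Serpina1e (0.89) and Cytl1 (0.88), and the nearest to Grem1 were Hmgcll1 (0.84), Eva1a (0.82) and Fgfr2 (0.79). Nog was nearest to Tpbg (0.89), Dlx5 (0.86) and Clec11a (0.86), and Chrdl1 to Fscn1 (0.91), Pak3 (0.87) and Nid2 (0.86). Among the targets, Id1 (0.96) and Id2 (0.95) were both nearest to Ier3, an immediate early gene. Smad7 was nearest to Ier2 (0.97), Pim3 (0.97) and Junb (0.97), of which Ier2 and Junb are immediate early genes too. Id3 was near Kank2 (0.95) and Tgfb3 (0.95), and Smad6 was near Nfib (0.93) and Ptprg (0.92).

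In superficial zone chondrocyte-like cells the Id genes were not called, whereas Smad6 fell. Id1 was at 272 CPM [262, 282] in sham and 380 CPM [368, 393] in DMM (1.40-fold [1.33, 1.47]), Id2 at 852 and 1020 CPM (1.20-fold [1.16, 1.23]) and Id3 at 298 and 291 CPM (0.976-fold [0.928, 1.03]). Smad6 was at 37.8 and 23.2 CPM (1.63-fold lower [1.38, 1.93]) and Smad7 at 197 and 146 CPM (1.35-fold lower [1.26, 1.45]). In thinned cells Smad6 was seen in 7.52% [6.15, 9.08] of sham and 4.07% [2.96, 5.44] of DMM cells and Id2 in 66.4% [63.8, 69.0] and 74.0% [71.2, 76.6], in the direction of their levels. The thinned share of Id3, 32.0% [29.5, 34.6] in sham and 33.4% [30.6, 36.3] in DMM, overlapped and went against its level. Smad6 was under 1.5-fold with median-of-ratios scaling (log2 -0.51) and relative to genes of like span (-0.41). Id1, by contrast, was past 1.5-fold with median-of-ratios scaling (log2 0.68).

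Smad6 was called lower in 4 of 13 testable clusters and higher in none, where 17.0% of genes tested in at least 13 clusters were lower in at least 4. The 4 were synovial lining-like cells (28.2 CPM in sham and 14.6 CPM in DMM, log2 -0.95 [-1.32, -0.58], where 12.7% of genes were called lower), the Casr cluster (37.3 and 22.4 CPM, -0.73 [-1.06, -0.42], 16.3%), the Msmp cluster (38.6 and 24.3 CPM, -0.67 [-1.05, -0.30], 13.7%) and the Npy cluster (50.5 and 32.1 CPM, -0.65 [-1.06, -0.26]). Smad7 was called in the Casr cluster alone among 16 (log2 -0.62 [-0.78, -0.48]).

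The Id genes were called in few clusters. Id1 rose in the Ptprz1 cluster, from 241 to 367 CPM (log2 0.61 [0.49, 0.72], where 3.60% of genes were called higher), and fell in osteoblast-like cells, from 128 to 83.0 CPM (-0.63 [-1.005, -0.27]). Id2 was called higher in osteoblast-like cells, at 76.2 and 122 CPM (0.68 [0.32, 1.04], 3.16%), a value that rested on 1 DMM cell with 32 of the 125 UMIs: without the top cells it was 0.38 [-0.02, 0.78] and not called. Id3 was called in none of the 16 clusters, with ratios between -0.31 in hypertrophic chondrocyte-like and 0.52 in osteoblast-like cells. In erythroid-like cells Id3 was at 7.39 CPM in sham and 14.0 CPM in DMM, called higher where 7.54% of 8647 genes were called, 0.856% higher and 6.68% lower; the part of free RNA in the other clusters was not tested.

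The ratio of DMM to sham depended on how long a gene is in the genome. In superficial zone chondrocyte-like cells the median log2 ratio was 0.25 for genes spanning under 5 kb, 0.02 for 5 to 20 kb, -0.30 for 20 to 100 kb and -0.46 over 100 kb. Nog, Id1, Id2 and Id3 are in the shortest class, Grem1 (12.48 kb) in the second, Chrdl2 (28.56 kb), Smad7 (28.41 kb) and Smad6 (68.98 kb) in the third and Chrdl1 (108.59 kb) in the longest. Beside genes of like span, Chrdl2 stood 1.09 higher on the log2 scale, above 99.4% of its class, Chrdl1 0.85 and Grem1 0.37 higher. Id1 stood 0.23 higher, Id2 and Nog each 0.01 higher, Id3 0.28 and Smad6 0.41 below the median of their classes. Over connective tissue Grem1 stood at -0.63 and Chrdl1 at -0.56 by this measure, the latter no longer past 1.5-fold, and Chrdl2 stood 0.70 higher, above 97% of its class.

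**Figure D5:**
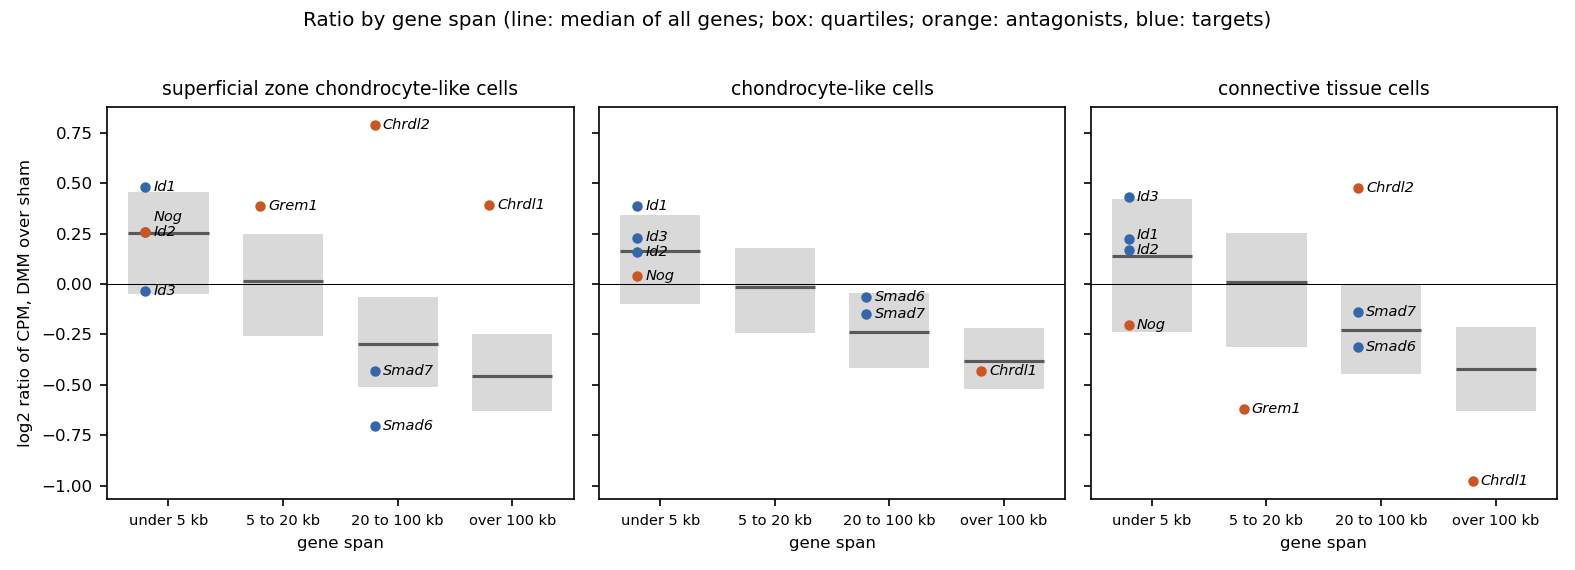
Log2 ratio of CPM, DMM over sham (y axis), of the testable genes among the 9 (orange antagonists, blue targets) by class of gene span (x axis) in 3 cell populations (panels); lines are medians and boxes quartiles of all genes. In superficial zone chondrocyte-like cells Chrdl2 sits above and Smad6 below the box of their class.

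In the rest of the pathway the calls in superficial cells went lower in DMM, the direction in which 15.2% of all genes were called against 2.81% higher. The share called lower was 5.54% for genes spanning under 5 kb and 30.5% for genes over 100 kb. The lists below were not compared with genes of like span. Of 11 ligands 9 were testable, 4 fell and 0 rose, with a median log2 ratio of -0.27 beside -0.20 over all genes. Those that fell were Bmp5 (283 CPM in sham and 173 in DMM), Bmp6 (352 and 215), Bmp8a (6.92 and 3.07) and Gdf6 (50.8 and 24.6), a ligand active at joint sites. Bmp2 was at 829 and 692 CPM and passed no call. Of 11 receptors and co-receptors 9 were testable and 3 fell, namely the type II receptors Bmpr2 (284 and 158 CPM) and Acvr2a (30.6 and 14.8 CPM) and the co-receptor Rgmb (34.5 and 21.4 CPM), with a list median of -0.43. Smad4, the common partner Smad (113 and 65.8 CPM), and Smad9 fell among 6 Smads and ligases (median -0.40).

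Secreted antagonists other than the 4 described here did not follow Chrdl2. Of 13 such genes 9 were testable, and Fst (follistatin, 7.11 and 3.18 CPM), Fstl1, Twsg1 (336 and 222 CPM) and Crim1 (668 and 410 CPM) fell while 0 rose, with a median of -0.60. In chondrocyte-like cells Bmp3 (8.05 and 4.96 CPM), Bmp6 (115 and 66.9 CPM) and Smad4 (77.0 and 49.9 CPM) fell. Among 5 testable further targets of the superficial cells Id4 fell (33.9 and 16.4 CPM). Of 12 genes known to respond to tissue dissociation only Hspa1b was called (lower), and the list median was -0.21 beside -0.20 over all genes. The superficial clusters differed in this list: in the Casr cluster Fos (log2 -0.70), Hspa1a (-0.77) and Hspa1b (-1.44) were called lower and the list median was -0.43 beside -0.21 over all genes, whereas in the Msmp cluster Ier3 was called higher (0.62) and the median was 0.033. The part of this list in the calls of those clusters was not tested. Over connective tissue 11 of the 13 other antagonists were testable, 2 rose and 3 fell, with a median of -0.21 beside -0.16 over all genes. Nbl1 rose from 182 to 368 CPM (log2 1.01 [0.98, 1.04]) and Htra1, a secreted protease, from 364 to 552 CPM. Among those that fell were Crim1 (258 and 166 CPM) and Vwc2 (3.44 and 1.87 CPM). These values pool clusters that differed in cell number, such as synovial lining-like cells (356 in sham and 865 in DMM). They were not computed with equal cluster makeup.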

How the data were processed

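Single-cell RNA from 1 sham and 1 DMM library of sorted mouse knee cells, each pooled from 3 mice, was analysed from the authors' deposited UMI counts per gene and cell, written by Cell Ranger 7.1.0 per the file headers. The submitters' processing notes name Cell Ranger 3.0.1, STAR, HTSeq, Seurat, DESeq2 and the build mm10. Barcodes below 500 genes or above 10% mitochondrial UMIs were dropped, and doublets called with Scrublet (4.63% of sham and 3.64% of DMM cells) were removed. Cells of both libraries were clustered together with scanpy 1.11.5 (10000 UMIs per cell, 2000 variable genes without the 9 genes described, 30 components, 15 neighbours, Leiden resolution 1.0, leidenalg 0.10.2). Of the 24 shared barcodes, 17 were among the kept cells.

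Clusters were named by the best of 21 marker lists, with a score of at least 0.75, a margin of 0.5 over the next list and 75% of markers detected; the margin and the 75% were chosen after the clusters were seen. Connective tissue means a named connective class or an unnamed cluster with Serpinh1 in at least 50% of cells. UMIs were summed per library and population. Ratios have exact conditional binomial intervals and levels exact Poisson ones, shares exact Clopper-Pearson ones, all at 95% and for counting error only. The call rule was run on simulated data with counting error alone, which cannot show how it behaves between mice or libraries. With 1 library per group no test between groups was made. Genes named as most alike are among the 3 with the highest Pearson correlation; a few genes are not reported here. Gene positions are from GENCODE, which held 99.6% of the features. The members and lists were chosen with earlier results of these data known. A deposited bulk CPM table by the authors was not used, since its 6 columns match no sample of the labels.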

Additional observations from a re-analysis of the deposited data

Results flagged for a closer look

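For 2 genes, clusters were called in opposite directions between sham and DMM, past 1.5-fold each. Other genes, such as Grem1 and Id3, had intervals above 0 in some clusters and below 0 in others without opposite calls. Chrdl2 had log2 ratios of DMM to sham of 0.832 in the Casr cluster and 0.736 in the Msmp cluster, against -1.045 in the Rgs6 cluster. Id1 had log2 ratios of 0.606 in the Ptprz1 cluster and -0.63 in osteoblast-like cells. Each group was 1 library, and the difference between clusters was not tested.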

How the results depend on the processing

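No paired analysis was possible because each group was 1 library. No called ratio changed sign in the alternatives run, but values that were not called did. Called ratios of single clusters had only 1 alternative each, without the top cell of each library. The other settings were not applied to them. In superficial cells Nog kept its sign in 14 of 15 alternatives (lowest -0.068), Chrdl1 in 12 of 14 (lowest -0.33) and Id3 in 11 of 15 (highest 0.16), and in chondrocyte-like cells Smad6 in 7 of 13. In superficial cells the count of called genes (2) was 0 with a 2-fold threshold, 0 with the Serpina1e cluster added and 0 from 200 genes per cell; the antagonist median (0.39) was 0.12 with the Serpina1e cluster, -0.034 from 200 genes, 0.61 by span and 0.59 with median-of-ratios. The target median there (-0.03) was 0.16 with median-of-ratios scaling, 0.041 without the 50 most abundant genes, -0.14 relative to genes of like span, -0.18 in thinned cells and -0.19 from 200 genes. In chondrocyte-like cells the count (0) was 1 with doublets kept, 1 with libraries centred and 1 at 5% mitochondrial UMIs. Their antagonist median (-0.20) was -0.031 with median-of-ratios, -0.087 by span, -0.065 and -0.072 at Leiden 0.5 and 2.0, -0.43 with doublets kept, -0.36 centred, -0.32 from 200 genes and -0.41 at 5%. Their target median (0.16) was 0.32 with median-of-ratios, 0.088 by span and 0.235 from 1000 genes. Median-of-ratios scaling changed which genes were called in superficial cells and over connective tissue. Over connective tissue the count (2) was 1 without the 50 most abundant genes, 0 at 2-fold, 1 without top cells and 0 with equal cluster makeup. The antagonist median (-0.41) was -0.25 with median-of-ratios and -0.10 with equal makeup, and the target median (0.17) was 0.33 with median-of-ratios, 0.21 without the 50 most abundant genes and 0.085 by span. The causes were not tested. Span classes, equal makeup, the added Serpina1e cluster and single-cluster values without top cells were chosen after seeing the data. Pooled by named class, Id1 was highest in hypertrophic chondrocyte-like cells (the Myh11 cluster alone was higher), and in perivascular-like cells at both other Leiden resolutions, with libraries centred and from 200 genes; the other 8 genes kept their highest class.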
